A study of Mus musculus with 33 samples.

Results

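RNA splicing in tibialis anterior, a fast muscle of the lower leg, was compared between 3 mice with both copies of Dmpk carrying an expanded CTG repeat and 3 wild-type mice. All events of the 5 deposited tables of this comparison were taken, with no further selection, which gave 81 splicing events in 69 genes, out of 549 events in 4 such comparisons of the series. The 480/480 mice were homozygous for a Dmpk knock-in allele that holds 480 CTG repeats, and the wild-type mice had the Dmpk+/+ genotype. Both groups were of the FVB strain, and each of the 6 libraries came from a different mouse, from total RNA depleted of ribosomal RNA. The labels list 33 libraries in 11 groups of 3, and by the mouse numbers in the labels the FVB mice each gave tibialis anterior, cultured myotubes and choroid plexus, so FVB libraries of different tissues share their mice. The allele is carried in every cell of the mouse, and no age is given in the sources used here. The tables hold inclusion values and no expression levels, so the tissue label could not be set against muscle markers.

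Dmpk codes for a protein kinase, and expansion of a CTG repeat at the end of its human counterpart causes myotonic dystrophy. RNA with the expanded CUG repeat gathers in nuclear foci and binds proteins of the muscleblind family, which control splicing during muscle development. Splicing of many muscle transcripts then returns towards forms seen before birth. The comparison asks which exons, splice sites and introns are used differently in a muscle that carries the expansion on both alleles.

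Inclusion is the percentage of transcripts at an event that carry the alternative exon, an exon's longer form or the retained intron, and each library has 1 value per event. Every event had already passed the authors' selection of at least 5 reads on average, an FDR (false discovery rate) of at most 0.05 and a change of at least 10 percentage points. The verbs "rose" and "fell" are used for events past that selection, and changes are 480/480 minus wild type. An exact permutation test of 3 libraries against 3 cannot go below p = 0.10, so the only p-values here are the authors' own. In bulk muscle, a splicing difference within cells and a shift in the mix of cell types cannot be told apart.

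Sequences are shown first for the events that the results turn on, because they show how small or large each alternative part is and how it ends. They were read from GENCODE M21 transcripts on mm10, 5′ to 3′ on the strand of the gene. In the first 4 lines the capitals mark the alternative part. The lower-case letters are the neighbouring 20 bases on each side in the spliced transcript, so they are exon bases and not intron. The Dmpk exon lies at chr7:19086893-19087041 on the plus strand, the Nos1 exon at chr5:117915547-117915648 on the plus strand, the Tra2a part at chr6:49245476-49245481 on the minus strand and the Dolpp1 exon at chr2:30396432-30396530 on the plus strand.
Dmpk exon: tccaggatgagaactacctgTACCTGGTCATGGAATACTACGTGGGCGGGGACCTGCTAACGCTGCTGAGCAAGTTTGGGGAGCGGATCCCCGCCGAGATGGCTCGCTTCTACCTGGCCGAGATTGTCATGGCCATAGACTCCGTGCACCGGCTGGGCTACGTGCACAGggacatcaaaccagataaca
Nos1 exon: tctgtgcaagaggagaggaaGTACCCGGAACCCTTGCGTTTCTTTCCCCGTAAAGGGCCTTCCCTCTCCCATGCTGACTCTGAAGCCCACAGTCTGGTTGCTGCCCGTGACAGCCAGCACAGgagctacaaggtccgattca
Tra2a splice-site part: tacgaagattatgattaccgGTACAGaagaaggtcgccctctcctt
Dolpp1 exon: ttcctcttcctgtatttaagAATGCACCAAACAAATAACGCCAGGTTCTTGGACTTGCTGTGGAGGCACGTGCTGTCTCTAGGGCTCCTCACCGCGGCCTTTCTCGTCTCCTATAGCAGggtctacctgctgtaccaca
The next 3 lines are whole retained introns, with the first and last 2 bases in capitals. They lie on the plus strand, at chr7:19092037-19092207 for Dmpk, chr7:13029125-13029206 for Trim28 and chr1:74735752-74735863 for Cyp27a1.
Dmpk intron: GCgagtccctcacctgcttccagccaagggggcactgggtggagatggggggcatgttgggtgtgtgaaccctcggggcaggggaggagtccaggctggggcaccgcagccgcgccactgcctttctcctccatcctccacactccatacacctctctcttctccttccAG
Trim28 intron: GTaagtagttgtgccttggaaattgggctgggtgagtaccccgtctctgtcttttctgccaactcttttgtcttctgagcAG
Cyp27a1 intron: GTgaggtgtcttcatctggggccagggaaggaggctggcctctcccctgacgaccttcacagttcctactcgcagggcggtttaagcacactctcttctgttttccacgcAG

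The 81 events were 37 skipped exons, 28 retained introns, 10 alternative 3′ splice sites, 3 alternative 5′ splice sites and 3 pairs of mutually exclusive exons. Inclusion rose at 47 events, which is 58% of all listed, and fell at 34, which is 42%. Skipped exons moved both ways, with 17 that rose and 20 that fell. Retained introns rose at 18 events and fell at 10, and the longer form at a 3′ splice site rose at 8 of 10. The 480/480 libraries did not overlap the wild-type libraries at 58 of the 81 events, or 71.6%, and since every event was selected for a difference, nothing is read from that share. The median absolute change was 28.8 points, with a range from 10.3 points at the Cyp27a1 intron to 69 points at a Ddo splice site. Many values sat at the ceiling: 63 events had at least 1 library at 100%, and at 17 events a whole group did.

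**Figure D1:**
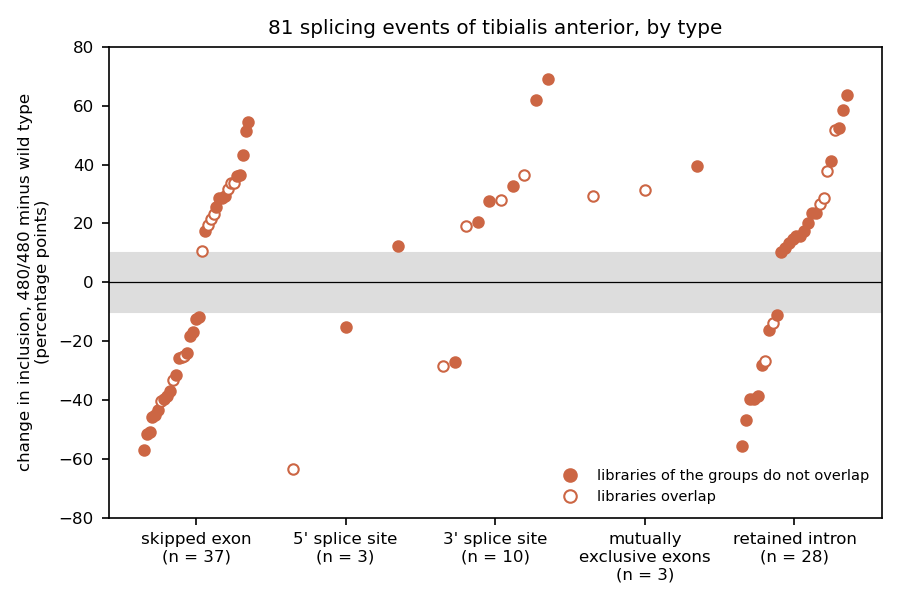
Change in inclusion (percentage points, 480/480 minus wild type, vertical axis) of each of the 81 events by event type, with filled points where the libraries of the groups do not overlap and open points where they do, and the grey band marking changes under 10 points, which the authors' selection left out. Skipped exons spread to both sides, while 8 of the 10 alternative 3′ splice sites and 18 of the 28 retained introns lie above 0.

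Dmpk, the edited gene, had 5 events, more than any other gene. Its coding exon of 149 bases, which codes for part of the kinase domain, was included in 97.1%, 97% and 96.4% of wild-type transcripts and in 84.5%, 80.5% and 70.9% of 480/480 transcripts. All 3 of the 480/480 libraries lay below all 3 of wild type, and the 3 wild-type libraries were within 1 point of each other. The fall was 18.2 points, and the authors' deposited table gives its FDR as 0. The length of the exon is not a multiple of 3, so transcripts without it change reading frame, and the junction that skips it is in no GENCODE M21 transcript.

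The other Dmpk events lay near the 3′ end of the gene, where the annotated gene ends 1275 to 1614 bases beyond the alternative parts. Retention of the 171-base intron was 5.50%, 4.70% and 12.3% in wild type and 20%, 33.1% and 17.2% in 480/480, without overlap. It rose by 15.9 points, with an FDR of 1.59e-08 in the authors' deposited table. This intron begins with GC, while the other 27 retained introns of the comparison begin with GT, and all of the 28 end with AG. The longer form of a 5′ splice-site event, whose 218-base part contains the same intron, was 89.8%, 85.6% and 87.6% in wild type and 100% in each 480/480 library. This longer form ends at the same base as a 47-base exon that spliced transcripts carry, and retention of the intron was far lower. Its values are therefore not the share of transcripts that keep the intron. Retention of the intron and use of the longer form thus moved the same way over shared bases, so they are not separate evidence.

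A nearby Dmpk exon had alternative 3′ splice sites. For the 129-base part, the longer form was 73.4%, 67.3% and 76.5% in wild type and 100% in each 480/480 library, a rise of 27.6 points. For the overlapping 125-base part it was 89.6%, 59% and 90.2% in wild type and again 100% in each 480/480 library, a rise of 20.4 points. The second-listed wild-type library sets much of that second value, which is 10.1 points without it. In the annotation the longer forms are carried by no protein-coding transcript. The shorter form of the 129-base event uses the same junction as the shorter form of the 5′ splice-site event. Both 3′ splice-site events also share their longer form, so these Dmpk splice-site events are not separate evidence. The reads were aligned to a reference without the expansion, and its part in the values near the repeat was not tested.

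**Figure D2:**
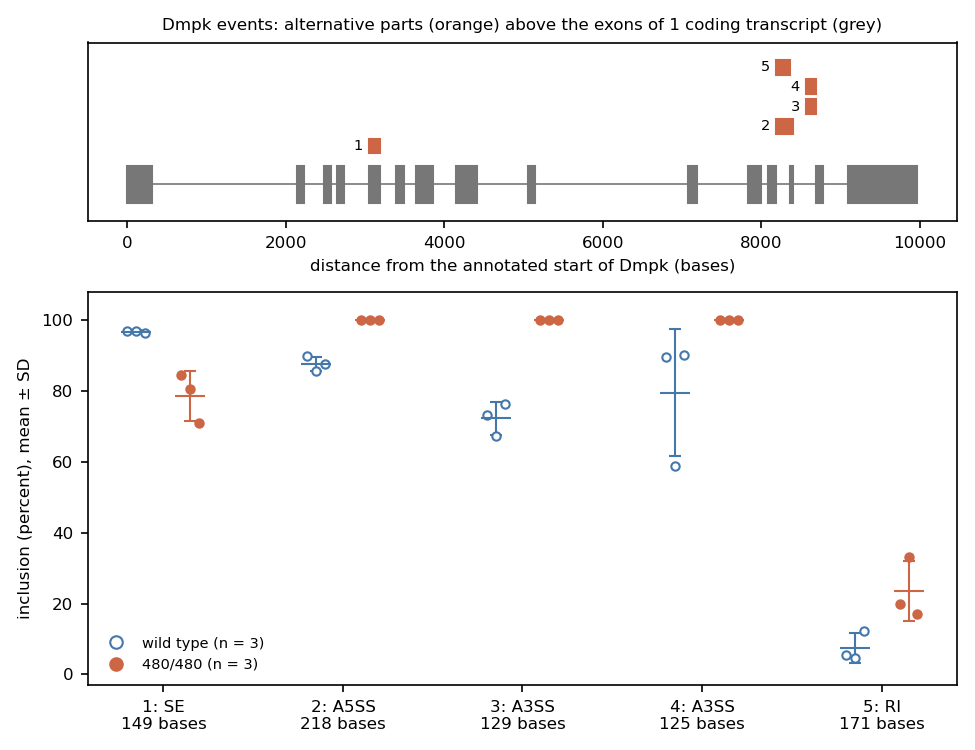
The 5 Dmpk events: above, the alternative parts by their distance in bases from the annotated start of the gene over the exons of 1 coding transcript, and below, inclusion (percent) in each library with mean and SD (n = 3 per group). The skipped exon lies 3044 bases from the start and falls in every 480/480 library, while the 4 events near the end of the gene are higher in every 480/480 library.

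The muscle gene lists were chosen with earlier results of these data known. None of 65 genes listed for splicing changes in myotonic dystrophy muscle, none of 55 genes of calcium handling and excitability, and none of 30 markers of other cells of muscle was among the 69 genes. Of 79 sarcomere and Z-disc genes 1 had an event, and of 32 genes of the dystrophin complex and neuromuscular junction 1 did. The tables hold only events past the selection, so whether the other listed genes were measured at all cannot be read from them. The share of all measured genes with an event is not known either, so no count on these or later lists is read as high or low.

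Nos1 codes for neuronal nitric oxide synthase, which in muscle is held at the sarcolemma by the dystrophin complex and makes the nitric oxide that widens vessels during exercise. The alternative exon is 102 bases, or 34 codons, and matches the insert that distinguishes the muscle form, nNOSµ, from the brain form. Inclusion was 78.1%, 98.1% and 95.9% in wild type and 67.1%, 59% and 68.2% in 480/480. Every 480/480 library was lower than every wild-type library, by 9.90 points at the closest, and the means were 90.7% ± 11 and 64.8% ± 5.02 (SD, n = 3 each). The fall of 25.9 points has an FDR of 7.44e-05 in the authors' deposited table. Both forms are annotated as protein-coding, and the exon keeps the reading frame.

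Myoz2 codes for a calcineurin-binding protein of the Z-disc. A partly coding exon of 172 bases was included in 100%, 100% and 75.2% of wild-type transcripts and in 100%, 62.5% and 37.8% of 480/480 transcripts. The groups overlapped, and the change of -25 points is -10.5 without the third 480/480 library and -41.6 without the first. Mettl21e, a methyltransferase gene expressed mainly in muscle, had more of a 750-base intron in 480/480, at 32.1%, 12.4% and 10.3%, against 2.60%, 6.80% and 5.70% in wild type. The groups did not overlap, but without the first-listed 480/480 library, the highest, the change of 13.2 points falls to 6.32.

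Tra2a codes for a splicing activator that binds GA-rich exons, and was the only 1 of 110 listed splicing and RNA-processing genes with an event. The site choice adds or removes the 6 bases GTACAG, 2 codons, in the coding sequence. The longer form was 94.9%, 100% and 96.4% in wild type and 80.3%, 82.2% and 82.8% in 480/480. The libraries of each group lay close together and far from the other group, and the fall was 15.3 points with an FDR of 0.00808 in the authors' deposited table.

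Clasrp codes for a protein with an arginine-serine-rich domain that binds a splicing-factor kinase. Retention of a 2327-base intron was 64.2%, 66.6% and 73.3% in wild type and 100%, 100% and 74.2% in 480/480, and the groups were 0.900 points apart at the closest. Gas5 is a non-coding host gene of small nucleolar RNAs, and its retained intron of 271 bases contains Snord78, a small nucleolar RNA that modifies ribosomal RNA. Retention was 43.1%, 30.6% and 37.1% in wild type and 54.4%, 60.6% and 56.2% in 480/480, a rise of 20.1 points without overlap. Reads of Snord78 itself fall inside that intron, and their part in the value was not tested.

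Genes of microtubules and the centrosome included 4 of the 85 on the list, of which 3 rose and 1 fell, all without overlap. Over all 81 events 58% rose and 71.6% did not overlap, so nothing particular to these 4 events is read from their counts. Fign codes for fidgetin, a microtubule-severing enzyme. Its 170-base exon was included in 57%, 47.9% and 31.5% of wild-type transcripts and in 100% of transcripts in each 480/480 library. Lrrc49, a subunit of the tubulin polyglutamylase complex, rose at a 198-base coding exon that keeps the frame, from 15.5%, 57.9% and 40.7% to 100%, 68.7% and 100%. These were the largest rises among skipped exons, 54.5 and 51.5 points.

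Tubgcp5, a component of the gamma-tubulin complex that nucleates microtubules, had more retention of a 527-base intron, with 1%, 1.20% and 11.1% in wild type and 13.8%, 31.4% and 14.9% in 480/480. The change of 15.6 points falls to 9.92 without the second 480/480 library. Cep250, a linker protein between centrioles, moved the other way, with retention of 51.3%, 100% and 58% in wild type and 16.5%, 30.5% and 22.2% in 480/480. A gene on the opposite strand overlaps this intron. Outside the list, Cep44, another centrosomal gene, fell at a 160-base exon of its 5′ UTR from 100% in each wild-type library to 71.9%, 58% and 59%, and retention of an intron of Txlng, a taxilin family gene, fell from 48% ± 11.9 to 20.1% ± 7.48 on average.

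Among 75 listed genes of the ubiquitin system, autophagy and lysosomes, 2 had events. Josd2 codes for a deubiquitinating enzyme and had 4 events, all falls, over a pair of overlapping exons of 58 and 112 bases in its 5′ UTR. With the first of a pair of upstream exon forms, the 58-base exon was included in 100% of transcripts in every wild-type library and in 22%, 79.8% and 27.3% in 480/480. The 112-base exon fell likewise from 100% in every library to 16.7%, 83.9% and 44.5%. With the other upstream form both were low already in wild type, at 15%, 20% and 17.2% for the 58-base exon, and fell to 4.30%, 7.30% and 2.90% in 480/480. For the 112-base exon the values were 15.5%, 21.1% and 19.5% in wild type and 5%, 8.10% and 7.80% in 480/480.

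None of the 4 Josd2 events overlapped between groups. In each of them the second-listed 480/480 library was the highest of its group, and the largest change was -57 points. The events share exons and hence reads, so they count as 1 region of the gene. Xaf1 codes for an interferon-induced antagonist of a caspase inhibitor. Its 196-base coding exon rose from 58%, 21.7% and 62.4% to 100%, 72.4% and 100%, without overlap.

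Genes of chromatin and transcription had events of every size; they were grouped here after their values were seen. Tada3, an adaptor of histone acetyltransferase complexes, had a small spread. Its 54-base exon was included in 92.7%, 100% and 90.8% of wild-type transcripts and in 53.8%, 71.9% and 63.6% of 480/480 transcripts, a fall of 31.4 points. Rtel1, a helicase of telomere and genome maintenance, was the only 1 of 74 listed DNA repair and chromatin genes with an event. Its 120-base exon, which in the annotation is carried only by a transcript marked for nonsense-mediated decay, fell from 82.2%, 100% and 69.8% to 27.8%, 23.5% and 65.8%.

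Carf, a calcium-responsive transcription factor, had events of opposite sign. The longer form at a 3′ splice site with a 105-base coding part rose from 21.7%, 22.9% and 25% to 55.6%, 100% and 100%, while a 118-base skipped exon fell from 100%, 100% and 81% to 43.7%, 34.1% and 73.1%. That skipped exon is the neighbouring exon of the 3′ splice-site event, so the Carf events share a junction and are not separate evidence. Zfp644, a zinc finger gene, rose at a 563-base non-coding exon from 80.6%, 76.3% and 78.5% to 88.3%, 100% and 100%, where another gene on the same strand overlaps. Ifi203, an interferon-inducible gene of the p200 family, fell at a 1242-base coding exon, the longest skipped exon of the comparison, from 100%, 100% and 84.8% to 67.8%, 61.5% and 79.2%. The Mndal gene overlaps that exon on the same strand, so its reads may be shared. These events separated the groups in every library.

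Other genes of this kind are given by their group means with SD (n = 3 per group). Sp100, a scaffold of nuclear bodies, rose at a 75-base exon from 68.1% ± 11.9 to 96.7% ± 5.77 and at a 54-base exon from 68% ± 11.5 to 96.8% ± 5.6. The Sp100 events have the same neighbouring exons and share the junction that skips them, so they are not separate evidence. Yeats2, a reader of acylated histones, rose from 65.2% ± 15.9 to 94.5% ± 9.58, and Baz1a, a chromatin-remodelling subunit, rose at a 3′ splice site from 60.7% ± 7.03 to 93.5% ± 11.3. Esr1, the oestrogen receptor alpha gene, had less of an exon in its 5′ UTR, from 95% ± 8.66 to 71.1% ± 10.8. None of these overlapped between groups. Zfp825, a zinc finger gene, rose without overlap from 69% ± 19.3 to 94.7% ± 9.18, and its change of 25.7 points is 14.5 without the second-listed wild-type library. A coding intron of Mtf2, a Polycomb-associated protein, rose without overlap from 85.2% ± 11.6 to 100% ± 0, by 14.8 points, or 8.15 without the second wild-type library.

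Events of the transcription factor genes Hivep2, Zmym5 and Arid5a and of Tulp4 and Sik2 overlapped between groups. Hivep2 averaged 4.37% ± 7.56 in wild type and 15% ± 2.86 in 480/480, and Tulp4 68.4% ± 27.6 in wild type and 100% ± 0 in 480/480, at an exon that a pseudogene on the opposite strand overlaps. Zmym5 averaged 70.1% ± 19.6 in wild type and 93.1% ± 11.9 in 480/480, and its 23.1 points are 13.3 without the third wild-type library. Arid5a averaged 88.4% ± 20.1 in wild type and 59.9% ± 34.8 in 480/480, a change of -28.5 points that is -17.8 without the third 480/480 library and -48.6 without the second. In each of these genes at least 1 library of a group lay within the range of the other group.

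Among genes of membranes, transport and metabolism, Slc18b1, a vesicular polyamine transporter, fell at a 157-base coding exon from 61.8%, 100% and 100% to 30.1%, 49.2% and 30.1%. Tanc2, a synaptic scaffold, fell at an in-frame coding exon of 111 bases from 100%, 100% and 73.8% to 28.7%, 58.5% and 70.8%. Etl4 fell at a 78-base coding exon from 85.5%, 100% and 100% to 37%, 49.5% and 79.7%. Each of these separated the groups, for Tanc2 by 3 points at the closest. A non-coding gene, D330041H03Rik, fell at a 424-base exon from 100%, 66.1% and 100% to 42.9%, 57.5% and 28.6%, also without overlap.

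A further set of such genes had group means as follows. Vkorc1l1, a relative of vitamin K epoxide reductase, rose at a coding exon from 60.5% ± 22 to 96.8% ± 5.6, and the longer form at a 3′ splice site of Ushbp1 fell from 100% ± 0 to 72.9% ± 13.6. Ifnar2, a receptor chain for type I interferons, fell from 96.8% ± 5.54 to 80% ± 11, by 16.8 points, or 10.7 without the second 480/480 library. These groups did not overlap.

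In contrast, the groups overlapped for Fam118b, with 58% ± 20.6 in wild type and 91.7% ± 14.4 in 480/480, at a 5′ UTR exon. They overlapped too for Pik3cd, a lipid kinase of leukocytes, with 100% ± 0 in wild type and 66.8% ± 29.7 in 480/480, where the change of -33.2 points is -21.3 without the third 480/480 library and -49.9 without the first. For Eri2, an exonuclease gene that overlaps Acsm3 on the opposite strand, the values were 38.1% ± 53.7 in wild type and 74.5% ± 44.2 in 480/480, and the 36.4 points are 67.4 without the third wild-type library and 19.9 without the first. At each of these events single libraries of a group lay far apart.

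Sec22c, a gene of vesicle transport at the endoplasmic reticulum, is listed with a fall of 40.3 points at a 164-base coding exon. Its libraries were 85.6%, 100% and 100% in wild type and 100%, 51.1% and 13.6% in 480/480, so the groups overlapped. The change is -19.7 points without the third 480/480 library and -62.9 without the first.

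Dolpp1, an enzyme of dolichol recycling for protein glycosylation, switched between mutually exclusive exons. The 99-base exon printed above was used in 16.3%, 16.3% and 40.6% of wild-type transcripts and in 65.2%, 62.9% and 63.8% of 480/480 transcripts. The 480/480 libraries lay within 3 points of each other, and the rise was 39.6 points. The larger of the Zbtb49 changes at mutually exclusive exons, at a 757-base exon, had 33.3%, 39.8% and 100% in wild type and 67.2%, 100% and 100% in 480/480, with overlap. Its change of 31.4 points is 52.5 without the third wild-type library and 19.2 without the first. The other Zbtb49 event had 59.9% ± 35 in wild type and 89.3% ± 18.5 in 480/480, also with overlap, and its 29.4 points become 49.4 and 17.1 without the same libraries.

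The largest rise of the comparison, 69 points, was in Ddo, which codes for D-aspartate oxidase. The longer form at a 3′ splice site with a 900-base part was 48%, 13.3% and 31.6% in wild type and 100% in each 480/480 library. The largest fall, 63.5 points, was at a 673-base 5′ splice-site part of Tex9, with 100% in each wild-type library and 3.20%, 100% and 6.30% in 480/480. Here the second-listed 480/480 library equals wild type, the groups overlap, and the change is -95.2 points without that library and -46.9 without the first. Both values rest on libraries at the ceiling of the scale.

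The 28 retained introns were each in a different gene, and 22 did not overlap between groups, a count to be read beside the 71.6% of all events. In 20 of them the retained form is annotated only as a retained-intron transcript, a class with no assigned protein. The introns that rose had a median length of 670 bases and a median GC content of 47.9%, against 552 bases and 48.2% for those that fell, so the directions were close to each other in both measures, which were not tested. Rises with the tightest libraries included Ptcd3, which codes for a protein of the mitochondrial ribosome, with 50.5%, 41.7% and 50% in wild type and 100% in each 480/480 library for a 937-base intron. It was the largest change among events with an SD under 10 points in both groups, 52.6 points, with an FDR of 8.87e-06 in the authors' deposited table. The next in size of these, Rrnad1, fell from 100% in each wild-type library to 66.4%, 59.7% and 54.9%.

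Larger but more variable rises were those of Ntsr2, a neurotensin receptor, from 53.6%, 38.1% and 17.6% to 100% in each library, and of Jak3, a kinase of cytokine receptors, from 23.1%, 18.4% and 40.4% to 100%, 57.5% and 100%. The groups of both were apart by at least 17.1 points. Cyp27a1, the sterol 27-hydroxylase, had a small rise of its 112-base intron from 20.1%, 11% and 14.5% to 22.3%, 24.7% and 29.5%. Wdr83 rose from 5.70%, 1.60% and 5% to 9.10%, 26.3% and 11.4% at a 282-base intron. The Wdr83 rise of 11.5 points is 6.15 points without the second 480/480 library.

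Falls of retention were seen in Ist1, a gene of endosomal membrane scission, from 36%, 42.5% and 35.5% to 23.9%, 23.4% and 18.1% at a 1333-base intron. The 82-base intron of Trim28, the co-repressor that silences transposable elements, fell from 12.4%, 22.3% and 15.2% to 8.40%, 7.20% and 1.10%. In both genes each 480/480 library was lower than each wild-type library. Hps4, a gene of lysosome-related organelles, fell from 66.7% ± 28.9 to 10.9% ± 7.31, Pde4c, a phosphodiesterase, from 87.9% ± 10.5 to 49.2% ± 5.22, and Rnpepl1, an aminopeptidase-like gene, from 100% ± 0 to 60.2% ± 19.6, all without overlap. The junction of the spliced Rnpepl1 form is in no GENCODE M21 transcript.

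The remaining introns are given by group means. Ftx, a non-coding gene of the X-inactivation centre, rose from 47.8% ± 9.4 to 89% ± 19.1, Arhgap27 from 12.3% ± 10.2 to 35.8% ± 10.8, and Snx12, a sorting nexin, from 76.1% ± 10.5 to 93.4% ± 1.35, without overlap. Groups overlapped for Qars, the glutaminyl-tRNA synthetase, with 65.8% ± 34.8 in wild type and 92.2% ± 13.5 in 480/480, and the 26.5 points are 8.83 without the third wild-type library and 43.6 without the first. They overlapped for Tbxas1, thromboxane synthase, with 22.1% ± 13.3 in wild type and 73.9% ± 45.1 in 480/480, where 51.9 points become 77.9 without the first 480/480 library. All 3 of the 480/480 Qars libraries and 1 of the 480/480 Tbxas1 libraries lay inside the wild-type range.

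Ufsp2, a protease of the ubiquitin-like protein UFM1, had 94.4% ± 9.64 in wild type and 67.8% ± 29.9 in 480/480, and its -26.6 points are -13.2 without the first 480/480 library and -42.7 without the third. Efr3b, a membrane anchor of a lipid kinase, had 15.9% ± 21 in wild type and 1.9% ± 3.29 in 480/480, and nearly all of its -14 points came from the second wild-type library, without which the change is -1.95. Both overlapped between groups.

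**Figure D3:**
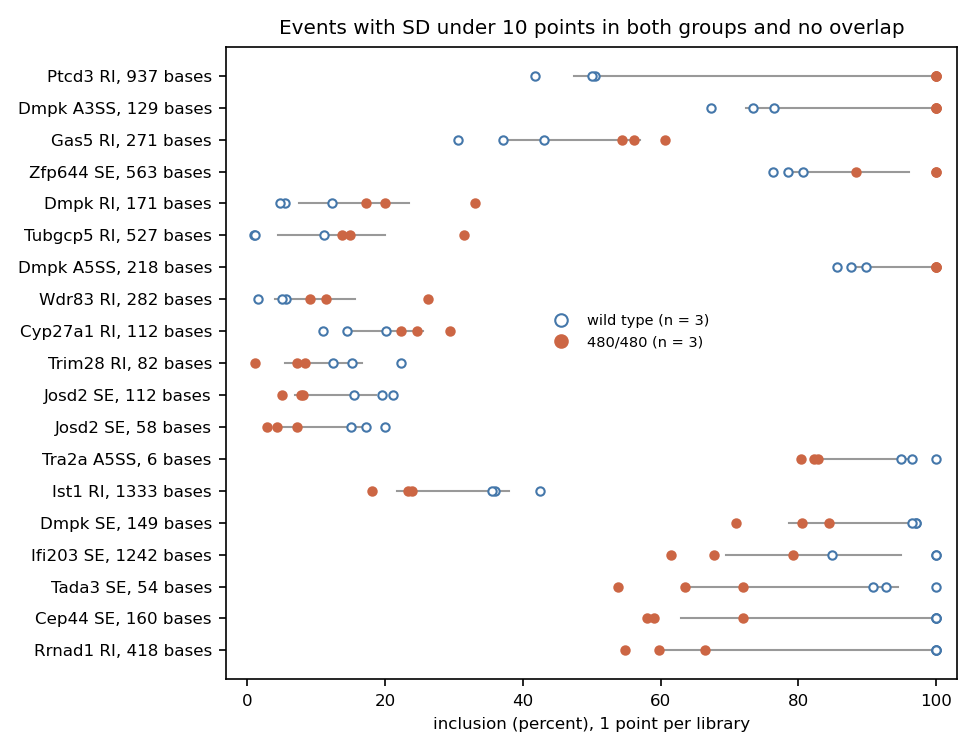
Inclusion (percent, horizontal axis) in each library for the 19 events with an SD under 10 points in both groups and no overlap, sorted by change, with open points for wild type, filled points for 480/480 and a line between the group means. The 9 rises run from the Cyp27a1 intron to the Ptcd3 intron and the 10 falls from the Trim28 intron to the Rrnad1 intron.

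By the annotation, both forms are protein-coding at 34 events, neither is at 9, and exactly 1 form is at 38. At those 38 the protein-coding form rose in 15 and fell in 23. Most of these are introns, where the spliced form is the coding one, and without them the coding form rose in 7 and fell in 11 of 18. The falls of the coding form include every Dmpk event, of which the splice-site events are not separate evidence. The Dmpk skipped exon is among them only because the junction that skips it is in no annotated transcript. No lean is therefore read from either split. Of the 37 skipped exons, 15 were wholly coding, 8 partly coding, 10 lay in the 5′ UTR and 4 were non-coding. Among the wholly coding exons 9 had a length that is a multiple of 3 and 6 did not. The distinct skipped exons, 35 in all, were 54 to 1242 bases long with a median of 120.

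The spread between mice was large beside many changes. The median SD was 10.5 points in wild type and 9.58 in 480/480, and only 21 events had an SD under 10 points in both groups. No event changed direction when any 1 library was left out, and 72 kept a change of 10 points or more in all 6 such runs. At 23 events leaving out a library moved the change by over 1.5 times. The first-listed 480/480 library was the one nearest to wild type at 34 events, against 21 for the second and 17 for the third, taking the order of libraries to be the same at every event. The wild-type libraries were as uneven: the first was nearest to 480/480 at 33 events, the second at 9 and the third at 31. Among the 23 overlapping events the median change was 28.5 points, which shows that a large change did not mean separate groups. The 19 events with a small spread had a lower median, 16.2 points.

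Beside the other comparisons of the series, tibialis anterior had the fewest events and the largest share of retained introns, 34.6%. The share was 4.94% for 480/480 myotubes, 12.7% for +/480 myotubes and 18.3% for 480/480 choroid plexus. Its median change of 28.8 points was also higher than their 21, 23.8 and 25.2. The median wild-type SD was 10.5 points, against 4.42, 6.06 and 6.46, and groups did not overlap at 71.6% of events, against 89.7%, 80.9% and 80%. Choroid plexus has only 2 listed 480/480 values, and fewer values per group make overlap less likely, so its share without overlap is not like for like. The tables were selected separately, depth is unknown, and the +/480 and 480/480 myotube comparisons share wild-type libraries, so these differences were not tested.

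**Figure D4:**
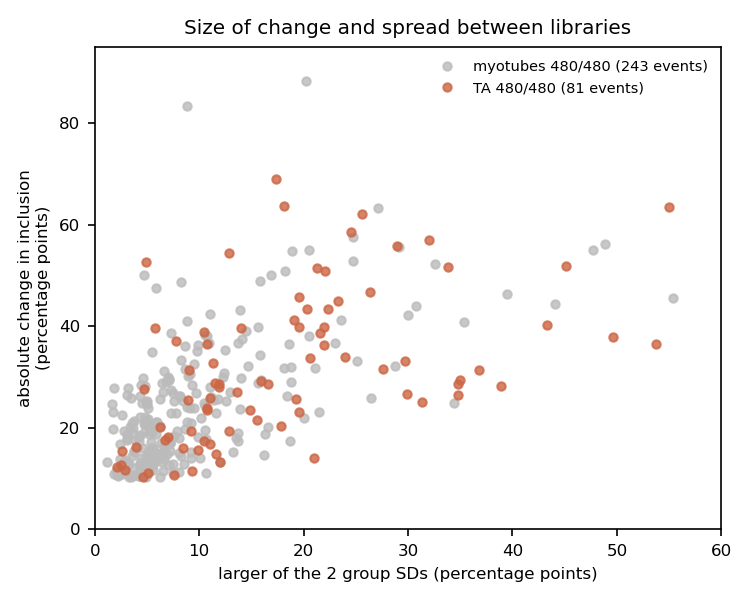
Absolute change in inclusion (percentage points, vertical axis) against the larger of the group SDs (percentage points, horizontal axis) for the 81 events of tibialis anterior and the events of 480/480 myotubes, 1 point per event. Many muscle events lie to the right of most myotube events, with medians of 10.5 and 4.42 points for the wild-type SD alone.

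Most of the 69 genes, 59, had a listed event in tibialis anterior alone, and 10 had a listed event in another comparison too. A gene not listed elsewhere may have been unmeasured there or changed without passing the selection, so this split is not read as tissue-specific. By exact start and end, 9 of 79 distinct alternative parts were also listed in another tissue. Josd2 moved the same way in both muscle sources: the 58-base exon was 100%, 53% and 100% in wild-type myotubes and 11.4%, 19.8% and 32% in 480/480 myotubes, a fall of 63.3 points beside the 57 points of tibialis anterior. The 112-base exon fell by 57.6 points in myotubes, beside 51.6 in the muscle.

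Several others moved in opposite directions. Lrp3, a gene of the lipoprotein receptor family, rose at a 63-base coding exon in tibialis anterior from 57.6%, 55% and 59.2% to 100%, 81.3% and 100%, whereas in choroid plexus the same exon had 100%, 94.2% and 100% in wild type and 62% and 87.6% in 480/480. The Trim28 intron, which fell in muscle, rose in choroid plexus from 12.6%, 16.7% and 10.1% to 31.5% and 19%. Only 2 values are listed for 480/480 choroid plexus. In these genes the groups did not overlap in either tissue, and the difference between tissues was not tested.

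Ggta1, a glycosyltransferase gene, had 82.7%, 34.7% and 57.1% in wild-type muscle and 76.1%, 100% and 100% in 480/480 muscle at a 66-base coding exon. These overlap, and the change of 33.9 points is 22.1 without the second wild-type library, while in 480/480 myotubes the exon fell by 50.9 points without overlap. A 267-base exon of the non-coding gene 1700123M08Rik had 68.7%, 73% and 84% in wild-type muscle and 84%, 100% and 100% in 480/480 muscle, touching at 84%, and fell by 50.1 points in myotubes beside other neighbouring exons. An 840-base intron of Mfsd2b, a sphingosine-1-phosphate transporter, had 39.6%, 24.7% and 36.5% in wild-type muscle and 14.1%, 100% and 100% in 480/480 muscle, with overlap there and in choroid plexus, where the change was 41.9 points. Its 37.8 points in muscle are 66.4 without the first 480/480 library and 23.4 without the third.

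**Figure D5:**
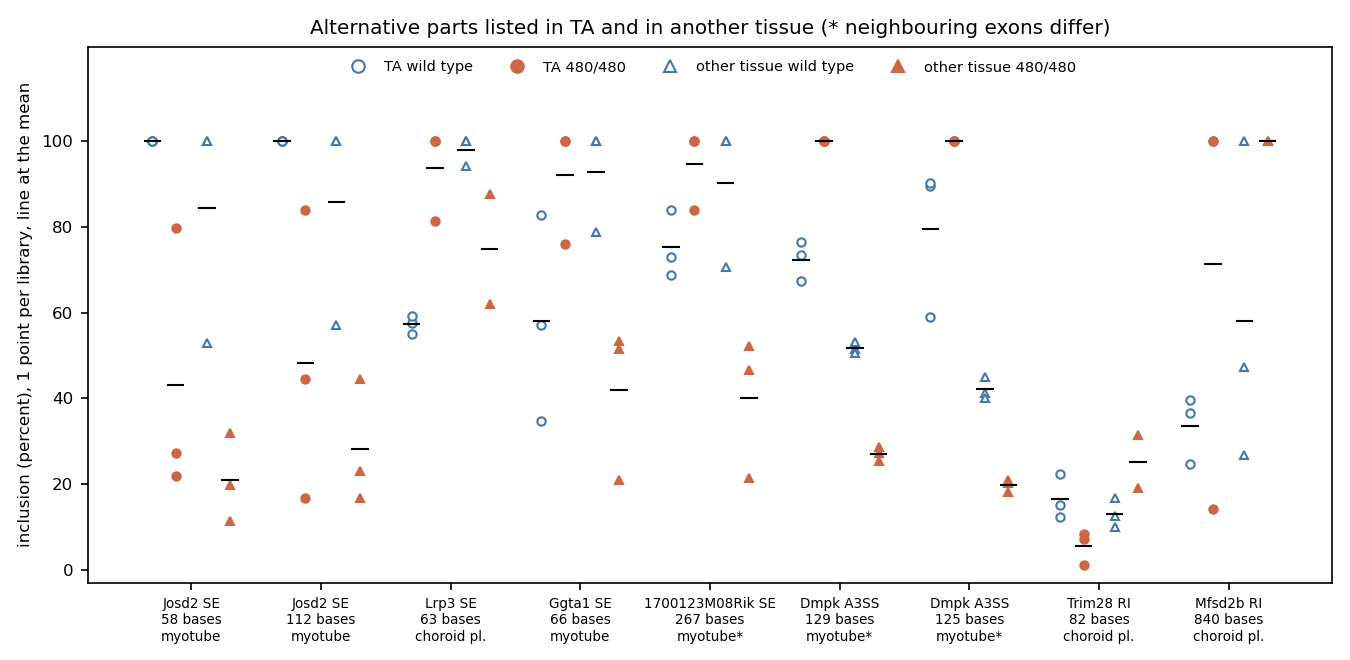
Inclusion (percent, vertical axis) in each library, with a line at the mean, for the 9 alternative parts listed both in tibialis anterior (circles) and in myotubes or choroid plexus (triangles), open for wild type and filled for 480/480, with a star where the neighbouring exons differ. The Josd2 exons fall in both, while the Lrp3 exon and the Trim28 intron move in opposite directions.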

How the data were processed

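Libraries of total RNA were prepared with a directional kit after ribosomal RNA depletion and sequenced on an Illumina NextSeq instrument, per the labels' protocols. The submitters' processing notes name FastQC, STAR and mm10, with no version of the tools. The program that called events is not given in these sources. The authors' filter, per the file headers, asked for at least 5 reads on average, an FDR of at most 0.05 and an absolute difference of at least 0.1, and deposited a p-value and an FDR for each. Inclusion is deposited as a fraction from 0 to 1 per library, shown here as a percentage, and the authors' difference score is wild type minus 480/480. The deposited tables hold no counts used here, so the depth is unknown and no counting interval is given.

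Changes were computed from group means and differed from the deposited differences by at most 0.0333 percentage points. No row was a duplicate. A current symbol was found for each of the 69 gene IDs, and 2 symbols were replaced. Exons, transcript classes and sequences came from GENCODE M21. For mutually exclusive exons, the exon that a value describes was checked against skipped exons in the same tables. All 49 of 49 cases, over both exons of the pairs, were as assumed. No skipped exon of Dolpp1 or Zbtb49 is listed, so the check does not cover the mutually exclusive exons of tibialis anterior. The members and gene lists were chosen with earlier results of these data known. Values in every library are given for Dmpk, the 12 largest skipped exons (1 per gene), the 2 largest events of each other type, list members, events with an SD under 10 points in both groups and no overlap, and parts listed in another tissue, plus Mettl21e and Clasrp, chosen after their values were seen. Other settings were an FDR of 0.01, a change of 20 points, 1 event per gene, an SD under 10 points, no group at the ceiling, medians, overlap in place of exact ends and leaving out each library. The values of 1 event, which is included in the counts, are not reported here. Parsing was tested on simulated data. Python 3.11.15, NumPy 2.4.6 and matplotlib 3.10.9 were used.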

Additional observations from a re-analysis of the deposited data

Results flagged for a closer look

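At 4 alternative parts every 480/480 library moved one way from wild type in tibialis anterior and the opposite way in another tissue. The Lrp3 exon changed by 36.5 points in tibialis anterior and by -23.3 points in choroid plexus. The Trim28 intron changed by -11.1 points in tibialis anterior and by 12.1 points in choroid plexus. Both choroid plexus changes rest on 2 listed 480/480 values. The Dmpk 3′ splice-site parts of 129 and 125 bases changed by 27.6 and 20.4 points in tibialis anterior and by -24.6 and -22.4 points in 480/480 myotubes, where the neighbouring exon differs, so these are not the same event. The difference between tissues was not tested for any of the 4.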

How the results depend on the processing

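No paired analysis was possible because no replicate number goes with the library values in the tables. At an FDR of 0.01 or less, 31 events were left, of which 17 rose, and 87.1% did not overlap. With an SD under 10 points in both groups 21 were left, of which 11 rose, and 90.5% did not overlap. Leaving out single libraries gave non-overlap shares from 73.7% to 87.3%, the highest without the first-listed 480/480 value and 82.1% without the third wild-type value, and fewer values per group make overlap less likely. It left 76 to 81 events at 10 points or more and median changes from 27 to 33.2 points. A change of at least 20 points left 61 events, 1 event per gene 69, and removal of groups at the ceiling 64, and the split of directions and the median change stayed within 1.5 times in each. Per event, 471 of 486 runs without a library kept their direction and a change of 10 points, and 15 runs over 9 events fell under 10 points. With medians 76 events kept both and 5 fell under 10 points. By any overlap rather than exact ends, 10 parts were shared with another tissue in place of 9. A search for motifs in introns around skipped exons was not run, since no genome sequence was used here. The depth behind each value is unknown, and values of 100% in 63 events show that a change is often bounded by the scale.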

Other observations

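Of the 69 genes, 7 lay on chromosome 7, which also holds Dmpk, with 14 events. Another chromosome held 8 genes. Clasrp lay nearest to Dmpk, at 0.487 Mb, followed by Trim28 at 6.05 Mb, Lrp3 at 16.1 Mb, Josd2 at 25.4 Mb and Tubgcp5 at 36.7 Mb, with Eri2 farthest. The share of event genes on chromosome 7 was 10.1% for tibialis anterior, 8.88% for 480/480 myotubes, 9.09% for +/480 myotubes and 17% for 480/480 choroid plexus. In all, 11 events overlapped a second annotated gene, 8 of them on the opposite strand, among them all 3 events of Sik2, which overlap Ppp2r1b.

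Of the genes with several kinds of event, Sik2, a salt-inducible kinase, rose in all 3 of its events, by 21.5 points at a skipped exon, 19.3 points at a 3′ splice site and 28.5 points at a retained intron, and the groups overlapped in each. The 3 events share bases and the same neighbouring exons, so they count as 1 region of the gene.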
